A study of Arabidopsis thaliana with 6 samples.

Results

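The 5 beta-tubulin genes described here are *TUB1* (AT1G75780), *TUB5* (AT1G20010), *TUB6* (AT5G12250), *TUB7* (AT2G29550) and *TUB9* (AT4G20890). They were chosen as all genes whose symbol is TUB followed by a number and that had a probe set mapped to that gene alone, which gave 5 of the 9 beta-tubulin genes in the RefSeq table and 5 of 13356 genes with a probe set of their own. *TUB2*, *TUB3*, *TUB4* and *TUB8* were not analysed here. RefSeq lists each of the 5 as a beta-tubulin, as the symbol says. Transcript levels came from inflorescence stems of *Arabidopsis thaliana* ecotype Columbia, from the lower part of the stem without the first 1 cm above the rosette. Plants were 5 weeks old and had 16 h of light and 8 h of dark. Wild type was compared with 35S::CLE41 plants, made in the same Columbia background. In these plants a viral promoter active in most tissues drives *CLE41*, which encodes the TDIF peptide that acts on the vascular cambium. Each genotype had 3 arrays. The sources used here do not say how many plants went into a sample, or whether 35S::CLE41 was 1 line or several. The p-values therefore reflect sample-to-sample spread that may be partly or wholly technical.

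Beta-tubulin pairs with alpha-tubulin to form the dimer from which microtubules are built. In growing plant cells the microtubules under the plasma membrane guide cellulose synthase complexes, and in dividing cells they form the spindle and the phragmoplast. Plants carry several beta-tubulin genes, called isotypes, whose proteins are very similar while their expression differs between organs and cell types. *TUB1* is known for transcripts that light lowers in seedlings, *TUB9* for its expression in pollen, and *TUB6* is often used as a reference gene. Because the coding sequences are so alike, a probe set named for a single isotype may also take up some signal from its relatives, which was not tested.

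The label of the transgenic group was checked first. Log2 intensities of *CLE41* averaged 9.69 ± 0.28 in wild type and 11.46 ± 0.24 in 35S::CLE41 (SD, n = 3 each), with no overlap between the genotypes. The genotypes differed at many genes: 14.8% of all probe sets were called, meaning a limma p of under 0.05 after Benjamini-Hochberg adjustment over all 22746, with 6.86% lower and 7.93% higher in 35S::CLE41. With all arrays shifted to the same median that split became 1975 lower and 1392 higher, against 1561 lower and 1803 higher as deposited. Wild-type replicate 2 stood apart, with 365 probe sets at least 2-fold from the mean of the other wild-type arrays, where the other 5 arrays had 32 to 100, so values without it are given where they matter. Probe sets respond differently per transcript, so intensities are compared between arrays for 1 probe set at a time, and shares below are shares of signal, not of transcripts.

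*TUB1* and *TUB5* fell in 35S::CLE41, while *TUB6*, *TUB7* and *TUB9* did not pass the test. This is 2 of 5 genes called, both lower, against a background of 6.86% lower among all probe sets. All 5 were bright, and among the 2490 probe sets at least as bright as *TUB1*, the dimmest of them over the 6 arrays, 22.9% were called and 13.8% were lower; that comparison set was chosen after the values were seen. The median log2 difference of the 5 genes was -0.27, against 0.0020 over all probe sets and -0.025 over the bright ones. In a whole stem, fewer cells of a type and less RNA per cell cannot be told apart.

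*TUB1* had normalized intensities of 1939, 2365 and 1595 in wild-type replicates 1 to 3 and of 286, 228 and 293 in 35S::CLE41 replicates 1 to 3. The lowest wild-type array was thus several times the highest 35S::CLE41 array. On the log2 scale the level was 10.92 ± 0.28 in wild type and 8.06 ± 0.20 in 35S::CLE41 (SD, n = 3 each). The difference was -2.86 (SE 0.17; 95% interval -3.25 to -2.47; limma adjusted p = 0.000252), which is 7.26-fold lower, with an interval of 5.56-fold to 9.48-fold. Among all probe sets 8 had a more negative difference. Wild-type replicate 2 was the highest array, 0.43 above the mean of the other wild-type arrays on the log2 scale, and without it the difference was -2.72 (limma adjusted p = 0.00019).

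*TUB5* had normalized intensities of 1867, 1975 and 1687 in the wild-type arrays and of 871, 855 and 762 in the 35S::CLE41 arrays. The genotypes did not overlap, and within each the arrays lay close together. The log2 level was 10.84 ± 0.12 in wild type and 9.69 ± 0.10 in 35S::CLE41 (SD, n = 3 each). The difference was -1.15 (SE 0.11; 95% interval -1.40 to -0.90; limma adjusted p = 0.00101), a fall of 2.22-fold with an interval of 1.87-fold to 2.64-fold. Leaving out single arrays moved it between -1.21 and -1.09, with -1.10 without wild-type replicate 2.

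*TUB6*, the brightest of the 5 probe sets, had normalized intensities of 4659, 4319 and 5335 in wild type and of 5777, 5289.9 and 4523 in 35S::CLE41. The highest and the lowest arrays came from different genotypes, but the ranges overlapped over most of their length. The log2 difference was 0.12 (SE 0.13; 95% interval -0.18 to 0.42; limma adjusted p = 0.616). The interval covers levels in 35S::CLE41 from 0.884 to 1.34 times those in wild type, so a change as large as that of *TUB5* lies outside it. Leaving out single arrays moved the difference between 0.042 and 0.22, with 0.053 without wild-type replicate 2.

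*TUB7* had normalized intensities of 796, 1004 and 773 in wild type and of 729, 673 and 712 in 35S::CLE41. Each 35S::CLE41 array lay below each wild-type array, as at 15.8% of all probe sets and 25.8% of the bright ones, but the gap was small beside the spread of wild type. The log2 difference was -0.27 (SE 0.12; 95% interval -0.56 to 0.011; limma adjusted p = 0.187). Wild-type replicate 2 was 0.36 above the other wild-type arrays on the log2 scale, and without it the difference was -0.16 (limma adjusted p = 0.42). *TUB9* had normalized intensities of 2046, 1918 and 2263 in wild type and of 2038, 1542 and 1879 in 35S::CLE41. Its genotypes overlapped, with a log2 difference of -0.20 (SE 0.13; 95% interval -0.50 to 0.11; limma adjusted p = 0.384). Without single arrays it ran from -0.28 to -0.082, the smallest without 35S::CLE41 replicate 2. For *TUB7* and *TUB9* the intervals leave room for a modest decrease, and they do not reach the fall of *TUB5*.

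**Figure D1:**
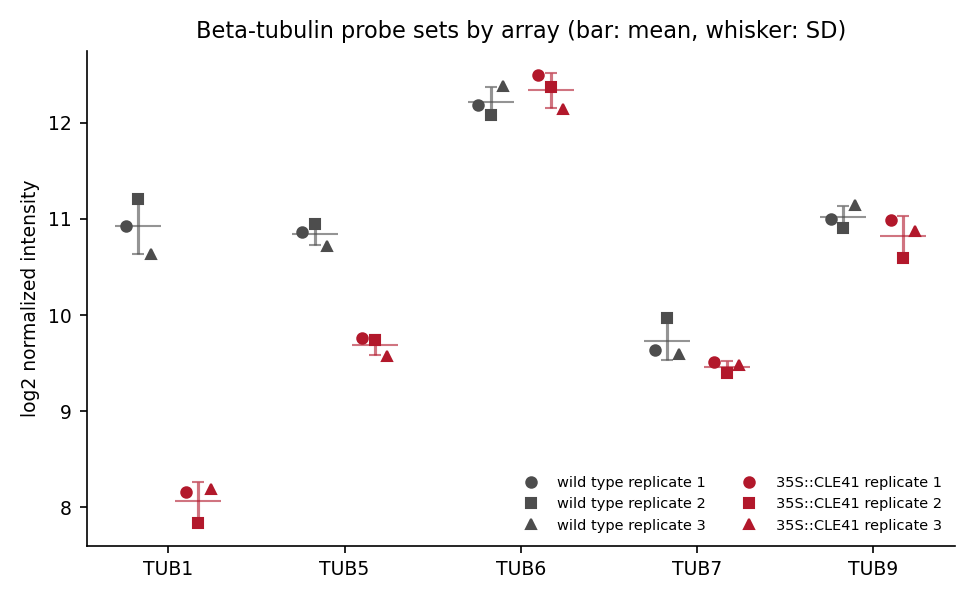
Log2 normalized intensity (vertical axis) of the 5 beta-tubulin probe sets (horizontal axis) on each array, wild type in grey and 35S::CLE41 in red, with marker shape for the replicate number, a bar for the mean and a whisker for the SD (n = 3). *TUB1* drops from 10.92 to 8.06 and *TUB5* from 10.84 to 9.69, while the points of *TUB6* and *TUB9* overlap between genotypes.

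**Figure D2:**
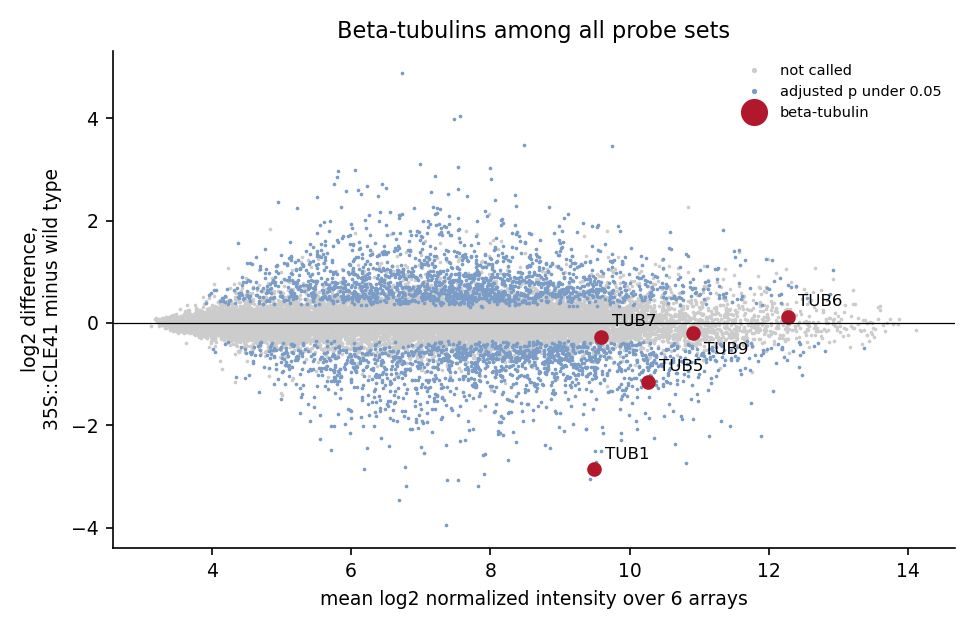
Log2 difference, 35S::CLE41 minus wild type (vertical axis), against mean log2 normalized intensity over the 6 arrays (horizontal axis) for all 22746 probe sets, called ones in blue, others in grey and the beta-tubulins in red. The 5 genes lie in the bright part of the plot, with *TUB1* at -2.86 near its lower edge and *TUB6* at 0.12 near the zero line.

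The summed linear signal of the 5 probe sets fell below the wild-type range on each 35S::CLE41 array. It was 11308, 11581 and 11654 in wild type and 9701, 8588 and 8169.8 in 35S::CLE41. The means were 11514 ± 182 and 8819 ± 791 (SD, n = 3 each), so that 35S::CLE41 stood at 76.6% of wild type. No test was made of this sum, whose members were chosen with earlier results known. The sum of *TUB1* and *TUB5* went from 3809.9 ± 529.6 to 1098 ± 52.3 (SD, n = 3 each), a drop of 2712 that compares with a drop of 2695 in the full sum. The sum of *TUB6*, *TUB7* and *TUB9* was 7704 ± 593 in wild type and 7721 ± 739 in 35S::CLE41 (SD, n = 3 each), with overlapping arrays. That grouping was made after the values were seen.

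The shares of *TUB1* and *TUB5* in the summed signal were lower in 35S::CLE41 and that of *TUB6* was higher. The shares on an array add up to a fixed whole, so a fall of some members raises the shares of others without any rise in their level. Shares are ratios within an array, so no scaling of whole arrays can move them. *TUB1* held 17.2%, 20.4% and 13.7% of the summed signal on the wild-type arrays and 2.94%, 2.66% and 3.59% on the 35S::CLE41 arrays. Its mean share went from 17.1% ± 3.37 to 3.06% ± 0.475 (SD, n = 3 each), a change of -14.0 percentage points with no overlap.

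*TUB5* went from shares of 16.5%, 17.1% and 14.5% in wild type to shares of 8.98%, 9.95% and 9.33% in 35S::CLE41. *TUB6*, whose level did not pass the test, took 41.2%, 37.3% and 45.8% of the signal in wild type and 59.6%, 61.6% and 55.4% in 35S::CLE41. Its mean share was thus 17.4 percentage points higher in 35S::CLE41, and the genotypes did not overlap. *TUB7* held 7.45% ± 1.07 and 8.02% ± 0.625 and *TUB9* held 18.0% ± 1.43 and 20.7% ± 2.54 of the signal in wild type and 35S::CLE41 (SD, n = 3 each), both with overlapping arrays.

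With *TUB1* left out of the sum, *TUB5* still differed without overlap, at 19.4% ± 2.38 in wild type and 9.72% ± 0.490 in 35S::CLE41 (SD, n = 3 each). *TUB6* held 49.9% ± 3.09 and 60.7% ± 2.98 of that smaller sum, again without overlap. The fall of *TUB5* by itself lifts the shares of the others in that sum. The shares of *TUB7* and *TUB9* in it overlapped between genotypes and moved by -0.75 and -0.40 percentage points, where they had moved by 0.58 and 2.63 in the full sum.

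**Figure D3:**
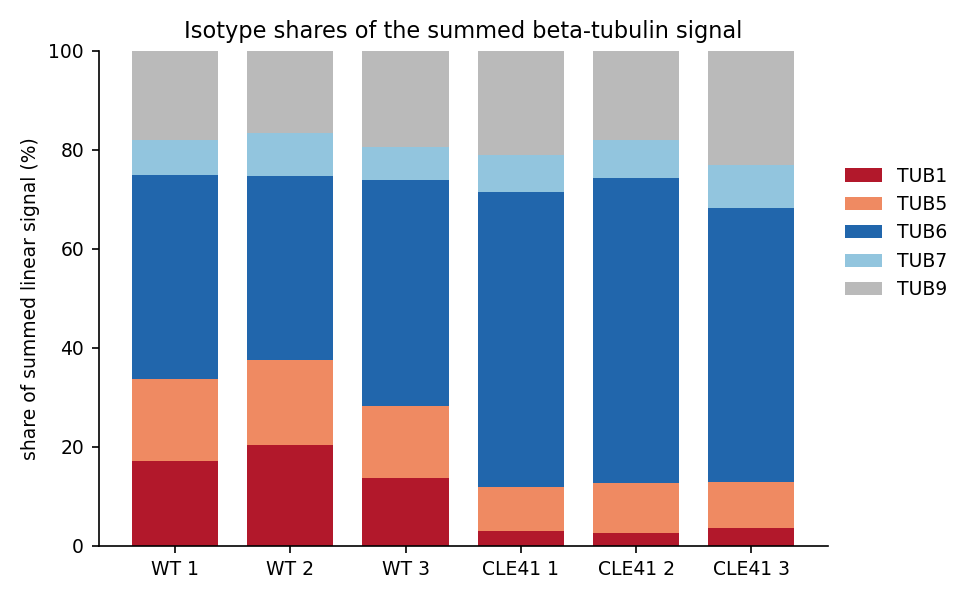
Share of the summed linear signal of the 5 beta-tubulin probe sets (vertical axis, percent) on each array (horizontal axis, WT for wild type and CLE41 for 35S::CLE41, with replicate numbers), stacked by isotype. *TUB1* shrinks from a mean of 17.1% to 3.06% and *TUB6* grows from 41.4% to 58.8%.

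Whether the isotypes changed by unequal amounts was tested on the log2 ratio of each pair within an array, for 10 pairs. With 3 arrays against 3, an exact permutation test cannot go below p = 0.1, and 8 of the 10 pairs reached that value (two-sided; 0.125 after Benjamini-Hochberg adjustment over the 10 pairs), so no pair could pass 0.05. The sizes differed widely. *TUB1* fell further than *TUB5* in that log2 *TUB1* over *TUB5* was 0.055, 0.26 and -0.081 in wild type and -1.61, -1.90 and -1.38 in 35S::CLE41, a change of -1.71 or 3.27-fold. Against *TUB6*, *TUB7* and *TUB9* the log2 ratio of *TUB1* changed by -2.98, -2.59 and -2.66.

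For *TUB5* the log2 ratio changed by -1.27 against *TUB6*, -0.88 against *TUB7* and -0.96 against *TUB9*. Each of these 7 pairs with *TUB1* or *TUB5* had no overlap between genotypes. Neither gene overlapped by itself, so the 7 pairs are not separate results. Of the remaining pairs, log2 *TUB6* over *TUB9* rose without overlap by 0.32, from 1.20 ± 0.034 to 1.52 ± 0.26 (SD, n = 3 each; exact permutation p = 0.1), and by 0.19 without 35S::CLE41 replicate 2. The ratio of *TUB6* over *TUB7* differed by 0.40 with overlap (exact permutation p = 0.2), and by 0.21 without wild-type replicate 2. That of *TUB7* over *TUB9* differed by -0.078 (exact permutation p = 0.8) and by 0.096 without wild-type replicate 2.

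Alpha-tubulins, the partners in the dimer, had 2 of 6 listed genes with a probe set of their own, and 0 were called by limma, with 1, *TUA6*, at an unadjusted p under 0.05. *TUA6* had normalized intensities of 6186, 6679 and 7640.1 in wild type and of 5596, 5219.9 and 4912 in 35S::CLE41, which did not overlap. Its log2 difference of -0.38 (SE 0.11; limma adjusted p = 0.0622) passed the threshold only with arrays shifted to the same median (limma adjusted p = 0.043) among the alternatives run. *TUA1*, known from pollen, differed by -0.085 (SE 0.11; limma adjusted p = 0.688).

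A probe set shared by *TUA3* and *TUA5*, which it cannot tell apart, had normalized intensities of 5738, 6258 and 6032 in wild type and of 3861, 4026 and 3516 in 35S::CLE41. It fell by 0.66 on the log2 scale (SE 0.098; limma adjusted p = 0.00539), less than *TUB1* or *TUB5*. Over these 3 alpha-tubulin probe sets the summed linear signal was 13238 ± 871 in wild type and 9416 ± 525 in 35S::CLE41 (SD, n = 3 each), or 71.1% of wild type. The ratio of summed beta to summed alpha signal was 0.872 ± 0.044 and 0.936 ± 0.052 (SD, n = 3 each), with overlapping arrays. Alpha- and beta-tubulin probe sets thus both had lower summed signal in 35S::CLE41.

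Of the 1 nucleation, 5 folding and 4 microtubule-associated genes measured, 2 passed the test, both higher, where 7.93% of all probe sets were called higher. Over the lists of alpha-tubulin, nucleation, folding, microtubule-associated, actin and cellulose synthesis genes, 15 of 73 listed genes were measured, of which 2 rose, 2 fell and 11 did not pass, with a median log2 difference of -0.072, against 14.8% called, 7.93% higher and 6.86% lower, and a median of 0.0020 over all probe sets. Of the 5 folding genes measured 0 were called by limma, and 0 had an unadjusted p under 0.05. Among them *POR*, which encodes tubulin-folding cofactor C, differed by -0.31 (SE 0.19; limma adjusted p = 0.347) and AT3G11830 by 0.20 (SE 0.13; limma adjusted p = 0.373). The 1 nucleation gene measured, AT5G17410, differed by 0.059 (SE 0.11; limma adjusted p = 0.789).

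Of 4 microtubule-associated genes 2 rose. *WDL3* (AT3G23090), of the WVD2 family, rose by 1.54 (SE 0.37; limma adjusted p = 0.0293) and *MAP65-6*, of the family that bundles microtubules, by 0.63 (SE 0.16; limma adjusted p = 0.035). Both calls were lost in several fits with 1 array left out. Such fits give fewer calls in general: 3364 probe sets were called with all arrays and 1699 to 2872 without single arrays. The same background applies to calls that other genes below lost in this way. *WDL3* lost its call when any 35S::CLE41 array was left out, at 1.46 to 1.59 (limma adjusted p up to 0.0911), and kept it at 1.05 without wild-type replicate 2 (limma adjusted p = 0.00241). *MAP65-6* lost its call when wild-type replicate 1 or any 35S::CLE41 array was left out, at 0.58 to 0.72 (limma adjusted p up to 0.113), and with arrays shifted to the same median, at 0.55 (limma adjusted p = 0.0534). Without wild-type replicate 2 it was 0.47 (limma adjusted p = 0.0472).

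Outside the microtubule system, the actin gene *ACT11* fell by 1.26 on the log2 scale (SE 0.12; limma adjusted p = 0.00119), close in size to *TUB5*. *ACT12* was dim in both genotypes and was the other actin gene measured. *COB*, which helps to orient cellulose, fell by 0.74 (SE 0.11; limma adjusted p = 0.00644) and was the 1 measured gene of 12 listed for cellulose synthesis. *TUB1*, *TUB5*, *ACT11*, *COB* and the *TUA3* and *TUA5* probe set were called without each array in turn.

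**Figure D4:**
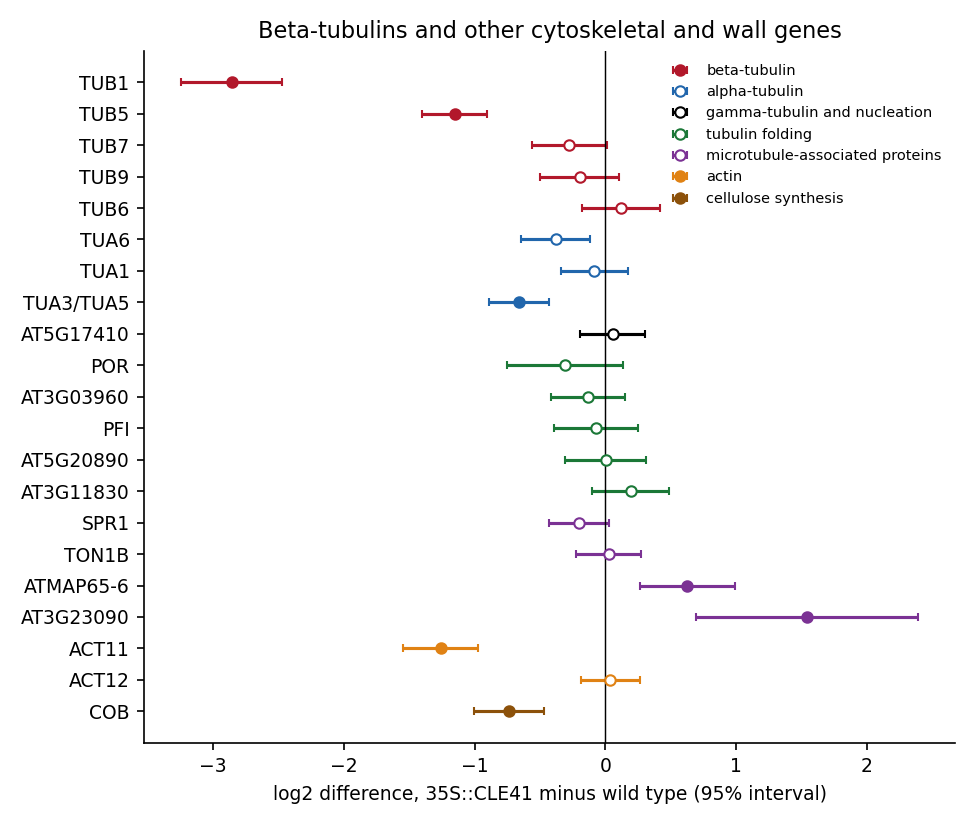
Log2 difference, 35S::CLE41 minus wild type, with its 95% interval (horizontal axis) for the beta-tubulins and the measured genes of 6 related lists (vertical axis, names as in RefSeq, with AT3G23090 for *WDL3* and ATMAP65-6 for *MAP65-6*), coloured by list. Filled points passed an adjusted p of 0.05, and the intervals of *TUB1* (-3.25 to -2.47) and *TUB5* (-1.40 to -0.90) do not meet those of the other beta-tubulins.

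Few markers of stem cell types were measured. *WSD1* of the epidermis and *MCM7* of dividing cells were called lower in 35S::CLE41, and *MOL1*, listed for the cambium, higher. *CLE41*, also on the cambium list, was called higher as well, but the construct sets its level. Over all probe sets 6.86% were called lower and 7.93% higher. Any part of cell types in the falls of *TUB1* and *TUB5* was not tested. Of 5 epidermal markers 1 was measured, *WSD1*, whose linear signal ranged from 389 to 759 in wild type and from 52.0 to 71.2 in 35S::CLE41. Of 5 markers of dividing cells 3 were measured, with a summed signal of 510.4 to 797 in wild type and 369.5 to 410.2 in 35S::CLE41, and 1 of them, *MCM7*, was called, with a log2 difference of -0.41 (limma adjusted p = 0.0428). The high end of the wild-type sum was replicate 2, where *AUR1* read 430 and *AUR2* 202. In wild-type replicates 1 and 3 *AUR1* read 254 and 227 and *AUR2* 112 and 124. *MCM7* lost its call when any array but 35S::CLE41 replicate 2 was left out, at -0.44 to -0.36 (limma adjusted p up to 0.145). *AUR1*, at -0.79 with all arrays (limma adjusted p = 0.0551), was called without wild-type replicate 2, at -0.51 (limma adjusted p = 0.0336), and without wild-type replicate 3, at -0.97 (limma adjusted p = 0.0397).

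For xylem and fibres 2 of 9 markers were measured, with summed signals of 2090.2, 985 and 2396 in wild-type replicates 1 to 3 and 3298, 2319.7 and 2495 in 35S::CLE41. The ranges overlapped, and the low end of wild type was replicate 2 alone. For phloem 2 of 5 were measured, with 138 to 155 in wild type and 144 to 196 in 35S::CLE41. Of these 4 genes 0 were called by limma, and 1, *IRX15*, had an unadjusted p under 0.05. Its log2 difference was 0.90, and 0.40 without wild-type replicate 2 (limma adjusted p = 0.168 and 0.18). *OPS*, a phloem gene, differed by 0.41 (limma adjusted p = 0.383) and was called without wild-type replicate 2, at 0.71 (limma adjusted p = 0.0422).

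Of 6 genes listed for the cambium 3 were measured. A listed gene need not be transcribed in cambium cells, so these signals do not measure the amount of cambium. One is *CLE41*, whose level the construct sets. The other two, *MOL1* and *CLE44*, had summed signals of 400.1 to 431 in wild type and 495.1 to 545 in 35S::CLE41. *MOL1* rose by 0.51 on the log2 scale (limma adjusted p = 0.0267) and *CLE44* differed by -0.11 (limma adjusted p = 0.715). *MOL1* lost its call without wild-type replicate 1 or 3 or 35S::CLE41 replicate 1 or 2, at 0.43 to 0.50 (limma adjusted p up to 0.0904). The pollen probe set shared by *VGD1* and *VGDH1* gave 18.4 to 25.5 in wild type and 20.7 to 24.5 in 35S::CLE41. That is near the dim end of the arrays, whose 5th percentile lay between 12.9 and 13.5. Intensities do not reach 0 here, so no marker was at 0.

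The genes most like each beta-tubulin in pattern were found by the root mean square difference between log2 profiles over the 6 arrays, each centred on its own mean, among 13508 other probe sets of 1 gene. For *TUB1* the nearest were the wax ester synthase gene *WSD1* (0.16), AT5G45950 (0.20), the triterpene synthase gene *LUP5* (0.20), AT5G45670 (0.26) and the xyloglucan endotransglucosylase/hydrolase gene *XTH16* (0.28). Each was lower in 35S::CLE41, by -2.55 to -3.08 in log2 difference, and each was highest in wild-type replicate 2, as *TUB1* was. These genes were picked for likeness to *TUB1* on the same 6 arrays, so such shared traits follow largely from the choice. *TUB5* would stand 152nd in that order of 13508 probe sets, with a difference of 0.87, a measure that also counts the size of the step between genotypes.

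For *TUB5* the nearest were *RALFL34*, which encodes a RALF-like peptide, at 0.070 and *XTH32* at 0.093. Their log2 differences of -1.24 and -1.14 likewise follow largely from the choice. *TUB6*, *TUB7* and *TUB9* had nearly flat profiles, for which many genes lie close. The nearest to *TUB6* were AT2G37910 (0.046) and AT4G23590 (0.048), both much dimmer. AT2G37910 read 21.1 to 27.1 and AT4G23590 13.7 to 17.2, where the 5th percentile of the arrays lay between 12.9 and 13.5. Whether either was expressed was not tested. The nearest to *TUB7* were *TO1* (0.030), encoding thioredoxin O1, and the tetraspanin gene *TET2* (0.034), and those to *TUB9* were AT2G30060 (0.037) and AT2G44310 (0.040). The beta-tubulins themselves were left out of this search, so none could be named for another.

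**Figure D5:**
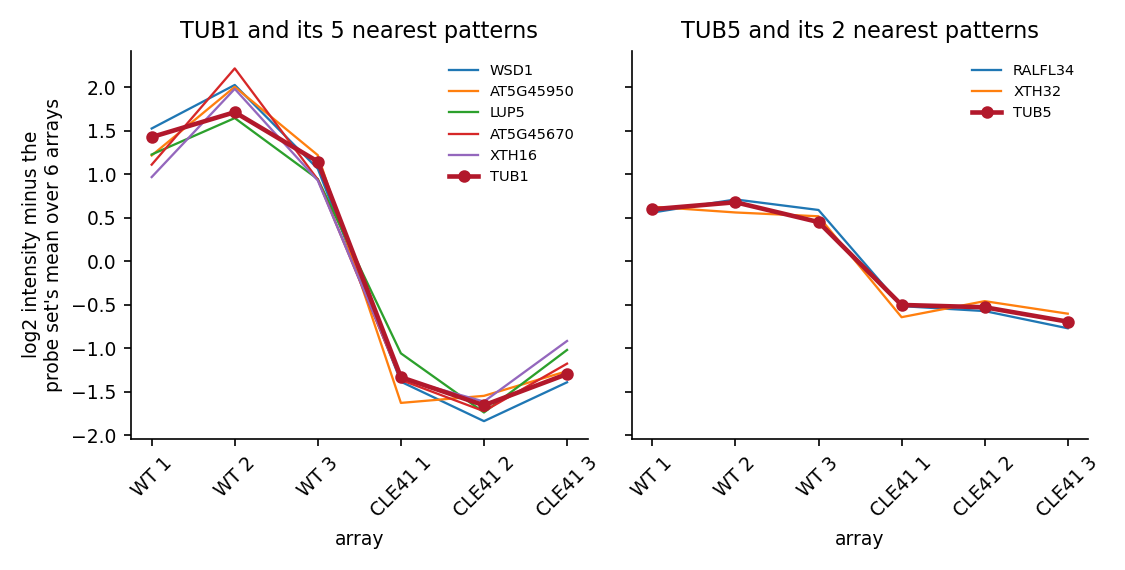
Log2 intensity minus each probe set's mean over the 6 arrays (vertical axis) on each array (horizontal axis, WT for wild type and CLE41 for 35S::CLE41) for *TUB1* with its 5 nearest patterns and *TUB5* with its 2, the beta-tubulin as the thick red line with points. Lines join arrays to guide the eye, and the step between genotypes is -2.86 for *TUB1* and -1.15 for *TUB5*.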

How the data were processed

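RNA was extracted with Trizol, labelled with biotin in a 2-cycle protocol and hybridised to 1 array per sample, per the labels' protocols. The deposited values were intensities on a linear scale, normalized between arrays by the authors as their near-equal medians (91.9 to 101) show. RMA and limma were used, per the submitters' processing notes, with no version, order or build given. RMA usually ends on log2 values, and the sources used here do not say how these came to be linear. The balance of rises and falls depends on the normalization, and it changed when arrays were shifted to the same median. No detection call was used.

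Log2 was taken and every probe set tested for genotype with limma 3.58.1 (lmFit and eBayes, two-sided) in R 4.3.3, adjusted over all 22746, with a threshold of 0.05. Of these, 13513 mapped to 1 gene in the platform annotation, updated through RefSeq (TAIR10.1 annotation), 503 to several and 8730 were not listed. Shares, sums and exact permutation tests used Python 3.11.15. The fit was tested on simulated data.

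The members and lists were chosen with earlier results of these data known. Named were the members, *CLE41*, the nearest patterns (5 for *TUB1*, 2 for the others) and, of each list, the called genes or else the 2 with the smallest p. *WSD1*, *MCM7*, *MOL1*, *AUR1*, *IRX15*, *OPS*, *CLE44*, *ENOC*, *VGD1*, *VGDH1* and *ACT12* were added to these once their values were known. No sequences were used. Alternatives were other scalings, a filter on dim probe sets, only probe sets of 1 gene, other variance settings, array weights, the replicate number as a block, subtraction of a low percentile, *TUB1* left out of the shares, and each array left out in turn. Figures were drawn with matplotlib 3.10.9.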

Additional observations from a re-analysis of the deposited data

How the results depend on the processing

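The log2 differences of the 5 beta-tubulins kept their direction and their side of the threshold in all 65 alternative values, with *TUB1* between -3.00 and -2.72 and *TUB5* between -1.23 and -1.09. Of the shares, 40 of 44 alternative values moved by less than the SD between arrays. The other 4 were those without *TUB1* in the sum, which change by construction: -9.66 percentage points for *TUB5*, 10.8 for *TUB6*, -0.75 for *TUB7* and -0.40 for *TUB9*. The summed signal stayed lower, by -0.47 to -0.34 on the log2 scale, in 9 alternatives. Of the pairs, *TUB7* over *TUB9* changed sign, with -0.21 to 0.096 without single arrays. The count of called probe sets was 1607 with only probe sets of 1 gene, where fewer were tested, and 1699 to 2872 without single arrays, the lowest without 35S::CLE41 replicate 2. Of the other pathway genes 2 to 4 were called without single arrays, against 4. Among named genes not called, *TUA1* ran from -0.15 to 0.0075 without single arrays. AT5G17410 ran from -0.0030 to 0.13 without single arrays, and gave -0.020 with arrays shifted to the same median and -0.0079 with quantile normalization; the cause was not tested. Deviations of same-numbered arrays correlated at -0.01, 0.08 and -0.09, so the numbers were not taken as pairs. The replicate block gave 2897 calls. Of the 50 listed or named probe sets it changed 3 calls: *MCM7* (limma adjusted p = 0.0577) and *ENOC* (limma adjusted p = 0.0637) lost theirs and *AUR1* (limma adjusted p = 0.0451) gained one. Each gene had 1 probe set of its own, and no probe set in the platform annotation, which leaves 8730 unlisted, was shared by beta-tubulins alone, so these alternatives gave no value. The number of arrays limits the precision.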

Other observations

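The genes next to the beta-tubulins on the chromosome were looked up in RefSeq order, a choice made after the other values were seen. Of 10 flanking protein-coding genes 5 had a probe set of their own, and 1 was called, against 14.8% of all probe sets. This was *ENOC*, which RefSeq lists as a cytosolic enolase, next to *TUB7*, with a log2 difference of -0.42 (SE 0.10; limma adjusted p = 0.0308), which lost its call when any array but wild-type replicate 1 was left out, at -0.45 to -0.37 (limma adjusted p up to 0.1). AT1G75770, next to *TUB1*, was dim, at a log2 intensity of 4.46 ± 0.15 in wild type and 4.21 ± 0.076 in 35S::CLE41 (SD, n = 3 each), and differed by -0.25 (SE 0.11; limma adjusted p = 0.178). AT4G20880, next to *TUB9*, differed by 0.32 (SE 0.095; limma adjusted p = 0.0607). The flanking genes of *TUB6*, AT5G12240 and AT5G12260, differed by 0.037 (SE 0.099) and -0.00041 (SE 0.087).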
